A study of Mus musculus with 10 samples.

Results

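Transcript levels of 10 genes of erythropoietin and iron handling were examined in mouse kidney after 30 days at high altitude. The genes were taken by name from a table of 55952 genes and were Epo, Tfrc, Trf, Fth1, Ftl1, Slc40a1, Slc11a2, Heph, Cp and Ireb2, each listed in 1 row. C57BL/6 mice, a common inbred strain, were kept at 400 m (control, 5 libraries) or at 4200 m (hypoxia, 5 libraries), and kidney RNA was sequenced in bulk. No genotype, drug or other agent is named in the labels, and the age of the mice is not given there. The comparison was made between the 5 control libraries and hypoxia replicates 1 to 3, and hypoxia replicates 4 and 5 are given apart, because markers of other tissues were high in them. Each altitude was also its own place of housing, so altitude and site cannot be told apart. Whether the libraries of a group stem from separate mice is not said in the labels, and p-values therefore reflect only the spread among these libraries, which may be technical.

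Values are FPKM, read fragments normalised for gene length and for library size. The libraries held 16561672 to 17845464 reads in genes. Markers of proximal tubule, the main cell type of kidney cortex, summed to 27951 to 34189 FPKM in the controls, against 0.421 to 0.750 FPKM for retina markers, which were checked because the labels' protocol speaks of retina. Hypoxia replicate 5 stood apart, with a median correlation of 0.850 with hypoxia replicates 1 to 3, against 0.978 to 0.979 among those 3 and 0.961 for hypoxia replicate 4. Its erythroid markers summed to 6883 FPKM against 234 to 629 FPKM in the controls, its B cell markers to 434 FPKM against 1.54 to 2.57 FPKM, and its macrophage markers to 403 FPKM against 50.3 to 65.2 FPKM. Hypoxia replicate 4 held 765 FPKM of adrenal markers, against at most 2.52 FPKM in the controls, and 676 FPKM of fat markers, against at most 192 FPKM.

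Erythropoietin is the hormone that drives red cell formation, and in the adult it is made mainly by interstitial fibroblasts of the kidney when oxygen is low. New red cells need iron for heme, so erythropoietin and iron supply are regulated together. Iron travels in blood bound to transferrin, enters cells through the transferrin receptor, crosses membranes through the transporter DMT1, is stored in ferritin and leaves through ferroportin, with ferroxidases loading it onto transferrin. Inside cells, the iron regulatory proteins bind a hairpin, the iron-responsive element, in several of these mRNAs. Binding in a 5′ untranslated region blocks translation, and binding in a 3′ untranslated region protects the mRNA from decay, so that only the second kind acts on the mRNA level itself.

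The hairpins are shown because their place in the mRNA differs between members. They were searched for in coding transcripts of GENCODE M21 as a C, any 5 bases, the loop CAGTGN and 5 bases that pair with the 5 before the loop, G-T pairs included, on the transcript strand only. There were 7 matches in 4 of the 10 genes, and 6 genes held none that met this pairing rule. Slc11a2 is among those 6, although some of its mRNA forms are known to carry an element in the 3′ untranslated region, so the rule does not find every element. Each is printed 5′ to 3′ as DNA on the strand of the gene, with the 6-base loop in capitals and positions in GRCm38.
Fth1, 5′ UTR, chr19:9982732-9982761, plus strand: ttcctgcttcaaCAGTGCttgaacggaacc
Ftl1, 5′ UTR, chr7:45459778-45459807, minus strand: gtcttgcttcaaCAGTGTttgaacggaaca
Slc40a1, 5′ UTR, chr1:45925464-45925493, minus strand: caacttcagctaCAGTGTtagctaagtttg
Tfrc, 3′ UTR, chr16:32631219-32631248, plus strand: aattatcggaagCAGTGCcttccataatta
Tfrc, 3′ UTR, chr16:32631598-32631627, plus strand: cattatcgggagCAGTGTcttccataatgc
Tfrc, 3′ UTR, chr16:32631663-32631692, plus strand: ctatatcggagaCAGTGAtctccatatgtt
Tfrc, 3′ UTR, chr16:32631710-32631739, plus strand: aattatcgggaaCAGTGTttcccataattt

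The motif was rare among 21901 coding genes, of which 31 (0.142%) held it in a 5′ untranslated region and 129 (0.589%) in a 3′ untranslated region. A match describes these letters and is not evidence of binding.

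Of the 10 genes, 9 averaged 0.5 FPKM or more across the 8 compared libraries. They were tested with limma together with all 14724 genes that met this filter, and a gene passed at a Benjamini-Hochberg adjusted p under 0.05. Fold changes are hypoxia minus control of log2(FPKM + 0.5), so those of genes with low values are understated. Trf was the only member that passed, 1 of 9, whereas 12.3% of all tested genes passed (4.53% higher and 7.75% lower in hypoxia). The 2 groups did not overlap for Trf, which was higher, and for Fth1, which was lower, 2 of 9 genes, against 21.5% of all tested genes (9.73% higher and 11.8% lower). The median log2 fold change of the 9 genes was 0.066, against -0.00046 over all tested genes, with 7 above 0 and 2 below.

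**Figure D1:**
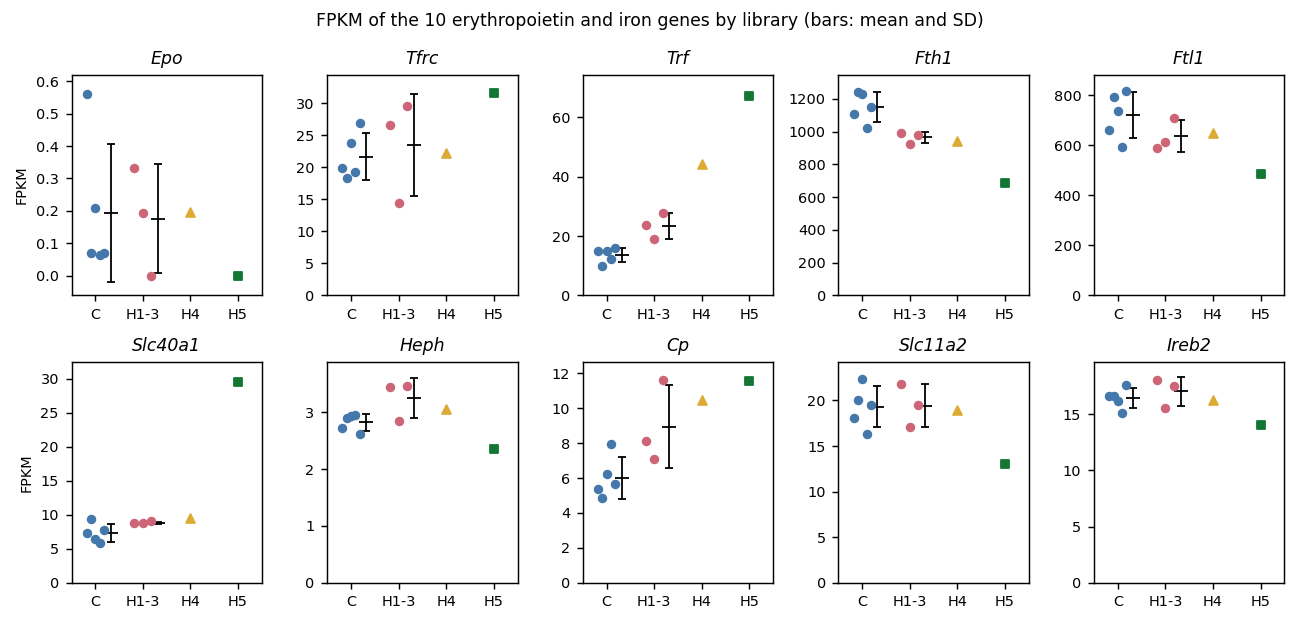
FPKM (y axis, starting at 0 except for Epo) of each of the 10 genes in the control libraries (C), hypoxia replicates 1 to 3 (H1-3), hypoxia replicate 4 (H4) and hypoxia replicate 5 (H5); points are libraries and bars are mean and SD. Trf lay above the controls in every hypoxia library, from 19.1 to 67.3 FPKM against 10.02 to 15.97 FPKM, whereas Epo stayed at or below 0.559 FPKM throughout. Trf was highest in H4 and H5, where markers of other tissues were high.

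Epo (chr5:137483020-137533242, minus strand) is the hormone gene itself. Its FPKM was 0.559, 0.0712, 0.209, 0.0644 and 0.0704 in control replicates 1 to 5, and 0.334, 0.193 and 0 in hypoxia replicates 1 to 3. These values rest on 8, 1, 3, 1 and 1 reads in the controls and on 5, 3 and 0 reads in hypoxia. The highest value was that of a control library, the lowest that of a hypoxia library, and the groups overlapped between them. The mean was 0.195 ± 0.212 FPKM in controls (SD, n = 5) and 0.176 ± 0.168 FPKM in hypoxia (SD, n = 3), an exact two-sided permutation p of 0.929 over 56 regroupings, of which the smallest possible is 0.0179. Hypoxia replicate 4 was at 0.198 FPKM with 3 reads, and hypoxia replicate 5 had none.

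A level of 3 reads corresponded to 0.192 to 0.214 FPKM in these libraries, so the means of both groups lay near that floor and no fold change is given. The exact 95% Poisson limits on the reads, which cover counting error only, reached up to 0.779, 0.564 and 0.252 FPKM in hypoxia replicates 1 to 3. Levels above these lay outside the interval of the library. The limits apply to single libraries, and the smallest difference between groups that could be detected at this depth was not determined. The sign of the difference rested on single libraries, being 0.0719 FPKM without control replicate 1 and 0.0687 FPKM without hypoxia replicate 3. The annotated Epo row also includes an exon of 104 bases, out of 855 in all, at chr5:137533139-137533242 that lies wholly inside exons of Gnb2, a gene on the same strand that averaged 41.9 FPKM in controls and 44.1 FPKM in hypoxia replicates 1 to 3. Whether any of the few Epo reads fell in that exon was not tested. Interstitial fibroblast markers summed to 90.4 to 122 FPKM in controls and 84.7 to 109 FPKM in hypoxia replicates 1 to 3 (exact permutation p = 0.518), and none of the 12 was at 0 in all 8 libraries. Of the 10 tested genes of that list 1 rose and 2 fell, against 4.53% and 7.75% of all tested genes. The list's median log2 fold change was 0.018. Rgs5, a pericyte gene, rose from 14.98 ± 1.81 FPKM (SD, n = 5) to 21.4 ± 3.74 FPKM (SD, n = 3), a log2 fold change of 0.50 with a limma adjusted p of 0.0322. Nt5e, a surface enzyme of these fibroblasts that proximal tubule also expresses, fell from 19.6 ± 3.29 FPKM (SD, n = 5) to 11.8 ± 1.04 FPKM (SD, n = 3), a log2 fold change of -0.70 with a limma adjusted p of 0.0105. In bulk RNA, fewer cells of a type and less RNA per cell cannot be told apart.

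Among the transport genes, Trf (chr9:103204001-103230444, minus strand) encodes transferrin, the iron carrier of plasma, whose main source is the liver. Trf was at 15.02, 10.02, 14.9, 12.2 and 15.97 FPKM in control replicates 1 to 5 and at 23.6, 19.1 and 27.7 FPKM in hypoxia replicates 1 to 3. Every hypoxia library was above every control library. The mean rose from 13.6 ± 2.45 FPKM (SD, n = 5) to 23.5 ± 4.33 FPKM (SD, n = 3), a log2 fold change of 0.76 (SE 0.166, 95% interval 0.39 to 1.14) or 1.70-fold, with a limma adjusted p of 0.0212. The libraries kept apart were higher still, at 44.3 FPKM in hypoxia replicate 4 and 67.3 FPKM in hypoxia replicate 5. Markers of other tissues were high in both, and their part in these Trf levels and in the fits with these libraries was not tested. With hypoxia replicate 4 added the log2 fold change was 0.99 (limma adjusted p = 0.0162, 18.4% of all tested genes called), and with all 10 libraries 1.25 (adjusted p = 0.0272, 11.5% called).

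The call for Trf depended on 2 libraries, because the limma adjusted p was 0.0749 without hypoxia replicate 1 and 0.0834 without hypoxia replicate 3, with log2 fold changes of 0.75 and 0.64. Markers of the hepatocyte, the main transferrin-making cell, summed to 108 to 164 FPKM in controls and 57.3 to 137 FPKM in hypoxia replicates 1 to 3 (exact permutation p = 0.0357, 0.125 adjusted over 14 marker lists). The lower sum rested on 1 gene, Ttr, which encodes transthyretin. Without it the other hepatocyte markers summed to 24.9 to 34.0 FPKM in controls, 27.9 to 94.0 FPKM in hypoxia replicates 1 to 3 (exact permutation p = 0.125), and 27.3 and 20.1 FPKM in hypoxia replicates 4 and 5, where Trf was highest. Of the 7 tested markers 1 rose and 1 fell, against 4.53% and 7.75% of all tested genes. The log2 fold change was above 0 for 6 of these markers and below 0 for 1, and their median was 0.43. None of the 8 markers was at 0 in all 8 compared libraries, and the part of this cell type in the Trf result was not tested.

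Tfrc (chr16:32608920-32632794, plus strand) encodes the transferrin receptor, and its 3′ untranslated region carries the 4 hairpins shown. Tfrc was at 19.9, 18.4, 23.8, 19.3 and 27.0 FPKM in control replicates 1 to 5 and at 26.6, 14.5 and 29.5 FPKM in hypoxia replicates 1 to 3. The hypoxia libraries held both the lowest and the highest of these 8 values, so the groups overlapped fully. The means were 21.7 ± 3.60 FPKM (SD, n = 5) and 23.5 ± 7.97 FPKM (SD, n = 3), a log2 fold change of 0.066 (95% interval -0.44 to 0.57, limma adjusted p = 0.876). The interval is wide and covers a fall as well as a rise. Tfrc was at 22.3 FPKM in hypoxia replicate 4 and at 31.6 FPKM, above every control, in hypoxia replicate 5. Erythroid precursors carry much transferrin receptor, and the erythroid markers of hypoxia replicates 1 to 3 summed to 105 to 523 FPKM, within or below the control range. Of the 18 erythroid markers in the table, only Gata1 had 0 reads in all 8 compared libraries. Hbb-bs, a beta globin gene, was at 229 ± 69.0 FPKM in controls (SD, n = 5) and 157 ± 100.2 FPKM in hypoxia replicates 1 to 3 (SD, n = 3).

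Slc11a2 (chr15:100387898-100425072, minus strand) encodes DMT1, which carries ferrous iron across the apical and endosomal membranes. Its levels were 18.1, 20.03, 22.4, 16.4 and 19.5 FPKM in control replicates 1 to 5 and 21.8, 17.1 and 19.5 FPKM in hypoxia replicates 1 to 3. All hypoxia values lay inside the control range. The log2 fold change was 0.012 (95% interval -0.23 to 0.26, limma adjusted p = 0.958), and its sign turned under 6 of 25 alternatives. Hypoxia replicate 4 was at 19.0 FPKM, inside the control range, and hypoxia replicate 5 at 13.02 FPKM, below it.

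Fth1 (chr19:9980598-9985098, plus strand) and Ftl1 (chr7:45457944-45459884, minus strand) encode the heavy and light chains of ferritin, the iron store, and were the most abundant members. Fth1 was at 1107, 1243, 1226, 1019 and 1148 FPKM in control replicates 1 to 5 and at 992, 927 and 977 FPKM in hypoxia replicates 1 to 3. Every hypoxia library was below every control, although control replicate 4 lay close to the highest of them. The means were 1149 ± 91.4 FPKM (SD, n = 5) and 965 ± 34.4 FPKM (SD, n = 3). The log2 fold change of -0.25 (SE 0.0860, 95% interval -0.44 to -0.054) did not pass across all genes (limma adjusted p = 0.0938). It passed without control replicate 4 (-0.29, adjusted p = 0.0298) and with hypoxia replicate 4 added (-0.26, adjusted p = 0.0401), but not with all 10 libraries (-0.35, adjusted p = 0.0959). The Fth1 change was smaller when scaled without the 100 most abundant genes (-0.17, limma adjusted p = 0.138) and after quantile normalization (-0.18, adjusted p = 0.0677). Hypoxia replicates 4 and 5 were at 945 and 686 FPKM, also below every control.

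Ftl1 was at 662, 791, 735, 593 and 815 FPKM in control replicates 1 to 5 and at 587, 612 and 709 FPKM in hypoxia replicates 1 to 3. The lowest value was that of a hypoxia library, but the other 2 lay inside the control range. The log2 fold change was -0.17 (95% interval -0.44 to 0.099, limma adjusted p = 0.384). Scaled without the 100 most abundant genes it was -0.093, and after quantile normalization -0.014. Hypoxia replicate 4 was at 647 FPKM and hypoxia replicate 5 at 486 FPKM. The Fth1 to Ftl1 ratio, which describes the chain mix of the message, was 1.61 ± 0.124 in controls (SD, n = 5) and 1.53 ± 0.157 in hypoxia replicates 1 to 3 (SD, n = 3).

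Ferritin genes have near-identical copies that can take their reads. Of 14 rows named as ferritin relatives or pseudogenes, 11 were at 0 reads in every library, and the largest was Ftl1-ps1, at 37.1 ± 4.29 FPKM in controls (SD, n = 5) and 28.4 ± 1.59 FPKM in hypoxia replicates 1 to 3 (SD, n = 3). Adding the pseudogene rows left the log2 ratio of group means at -0.25 for Fth1 and -0.19 for Ftl1. Both genes carry the hairpin in the 5′ untranslated region, so the mRNA level is not a measure of ferritin protein.

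Slc40a1 (chr1:45908068-45926523, minus strand) encodes ferroportin, the iron exporter, abundant in macrophages that recycle red cells. It was at 7.26, 9.36, 6.50, 5.83 and 7.71 FPKM in control replicates 1 to 5 and at 8.77, 8.78 and 9.04 FPKM in hypoxia replicates 1 to 3. The hypoxia values were close together and above 4 of the 5 controls. The log2 fold change was 0.27 (95% interval -0.013 to 0.56, limma adjusted p = 0.196). Hypoxia replicate 4 was at 9.50 FPKM, just above every control, and hypoxia replicate 5 was at 29.5 FPKM. In hypoxia replicate 5 the macrophage markers also summed to 403 FPKM, against 45.7 to 64.5 FPKM in hypoxia replicates 1 to 3, and their part in the Slc40a1 level was not tested.

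The 2 ferroxidases oxidize iron for loading onto transferrin, hephaestin at the cell membrane and ceruloplasmin mostly in plasma, and both need copper. Cp (chr3:19957054-20009145, plus strand) was at 5.36, 4.85, 6.24, 7.97 and 5.66 FPKM in control replicates 1 to 5 and at 8.15, 7.10 and 11.6 FPKM in hypoxia replicates 1 to 3. Control replicate 4 lay above the lowest hypoxia library, and the other 4 controls lay below all 3. The means were 6.01 ± 1.20 FPKM (SD, n = 5) and 8.95 ± 2.36 FPKM (SD, n = 3), a log2 fold change of 0.53 (SE 0.179, 95% interval 0.12 to 0.93, limma adjusted p = 0.0895). Cp passed without control replicate 4 (0.63, limma adjusted p = 0.0363) and in limma voom on recovered reads (0.60, adjusted p = 0.0498). It also passed with hypoxia replicate 4 added (0.59, adjusted p = 0.0339) and with all 10 libraries (0.65, adjusted p = 0.0284). Markers of other tissues were high in hypoxia replicates 4 and 5, and their part in the fits with these libraries was not tested. In 19 of 25 alternatives Cp did not pass, and with 1 library left out the log2 fold change was as low as 0.33. Hypoxia replicates 4 and 5 were at 10.5 and 11.6 FPKM, above every control. Cp overlaps Hps3 on the opposite strand, which averaged 5.32 FPKM in controls and 4.92 FPKM in hypoxia replicates 1 to 3. The strand setting of the counting is not given, so reads of the overlap cannot be told apart.

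Heph (chrX:96455359-96574485, plus strand), the membrane ferroxidase, was at 2.73, 2.90, 2.94, 2.96 and 2.62 FPKM in control replicates 1 to 5 and at 3.45, 2.85 and 3.47 FPKM in hypoxia replicates 1 to 3. Hypoxia replicates 1 and 3 were above every control, and hypoxia replicate 2 lay among them. The log2 fold change was 0.17 (95% interval -0.023 to 0.37, limma adjusted p = 0.227). Hypoxia replicate 4 was at 3.07 FPKM, above every control, and hypoxia replicate 5 at 2.35 FPKM, below all of them.

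Ireb2 (chr9:54863789-54912530, plus strand) encodes iron regulatory protein 2, which binds the hairpins when iron is low and is itself controlled mainly by protein degradation. Its levels were 16.6, 16.6, 16.2, 15.1 and 17.6 FPKM in control replicates 1 to 5 and 18.01, 15.5 and 17.5 FPKM in hypoxia replicates 1 to 3. The groups overlapped, with 1 hypoxia library above every control. The log2 fold change was 0.048 (95% interval -0.11 to 0.21, limma adjusted p = 0.704). Hypoxia replicates 4 and 5 were at 16.3 and 14.0 FPKM.

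**Figure D2:**
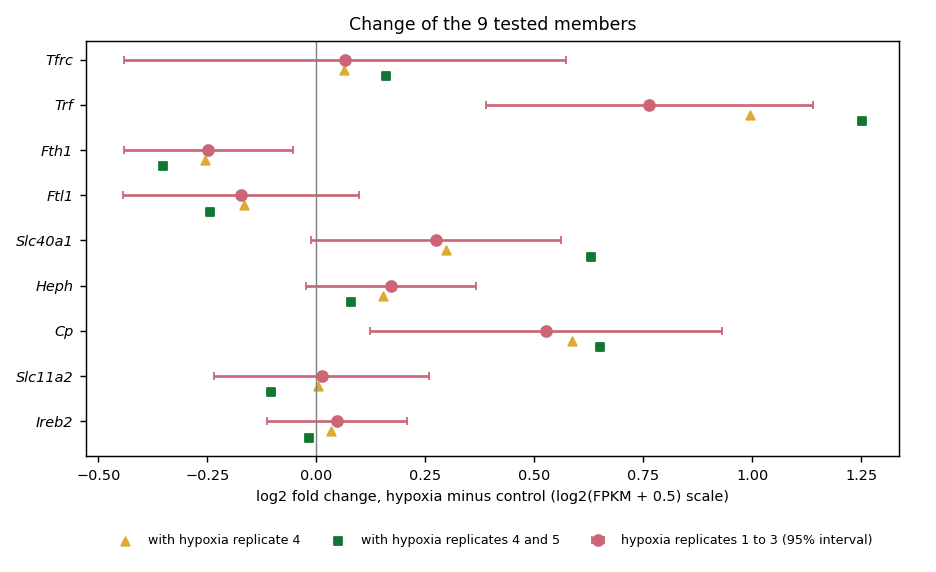
Log2 fold change, hypoxia minus control on the log2(FPKM + 0.5) scale (x axis), of the 9 tested members (y axis); circles with 95% intervals use hypoxia replicates 1 to 3, triangles add replicate 4 and squares add replicates 4 and 5. The interval of Trf runs from 0.39 to 1.14, and those of Fth1 and Cp also lie off 0 but missed the adjusted threshold.

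Between genes, FPKM per length gave the order Fth1, Ftl1, Tfrc, Slc11a2, Ireb2, Trf, Slc40a1, Cp, Heph and Epo in the controls. The ranges of the 5 libraries overlapped between Tfrc and Slc11a2, Slc11a2 and Ireb2, Ireb2 and Trf, and Slc40a1 and Cp, so the ranges alone do not separate these neighbours. Within a library, Slc11a2 was above Ireb2 and Ireb2 above Trf in 5 of 5 controls, and Tfrc above Slc11a2 and Slc40a1 above Cp in 4 of 5. The 2 ferritin chains stood far above the rest, the lowest Ftl1 value being 593 FPKM against 27.0 FPKM for the highest Tfrc value. Reads behind a value ran from 328 for Heph to 71454 for Fth1 among the tested members.

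The promoter windows are given because hypoxia-inducible factors bind the core letters ACGTG or GCGTG. RefSeq windows of 300 bases (GRCm38.p6) were listed for 6 members, Epo, Tfrc, Fth1, Ftl1, Cp and Ireb2. On both strands, ACGTG occurred in 19.6% and GCGTG in 32.4% of 32851 such windows, and either in 43.8%. Among the members ACGTG occurred only in Tfrc, shown here in capitals.
Tfrc promoter, chr16:32608882-32608911, plus strand: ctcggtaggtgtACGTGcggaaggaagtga
GCGTG occurred in windows of Epo, Tfrc, Fth1 and Ftl1, and neither core was found in those of Cp or Ireb2. A match of such short letters is a description and not a site.

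The other genes of these pathways were taken from 9 lists, chosen with earlier results of these data known. Together they held 122 tested genes without the members, of which 8 rose and 18 fell (21.3%, against 12.3% of all tested genes). These shares describe the lists and are not a test of them. The total of 26 calls became 15 when control replicate 1 was left out, and 13 and 11 when hypoxia replicates 1 and 3 were. Across all tested genes the direction split depended on scaling, with 1129 higher and 783 lower when scaled without the 100 most abundant genes. In the list of erythropoietin receptor signalling, none of 13 tested genes passed. Epor, the receptor, chosen after its values were seen, was at 2.34 ± 0.701 FPKM in controls (SD, n = 5) and 1.92 ± 0.362 FPKM in hypoxia (SD, n = 3), with a limma adjusted p of 0.517. The transcription factor Stat5b, which the receptor activates, was at 10.6 and 10.9 FPKM and the adaptor Grb2 at 21.3 and 19.2 FPKM, also without passing. In the list of oxygen control of Epo, 1 of 12 tested genes passed, against 12.3% of all tested genes. This was Wt1, a transcription factor known from podocytes, which rose from 1.95 ± 0.120 to 3.48 ± 0.356 FPKM (log2 fold change 0.70, limma adjusted p = 0.0026).

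**Figure D3:**
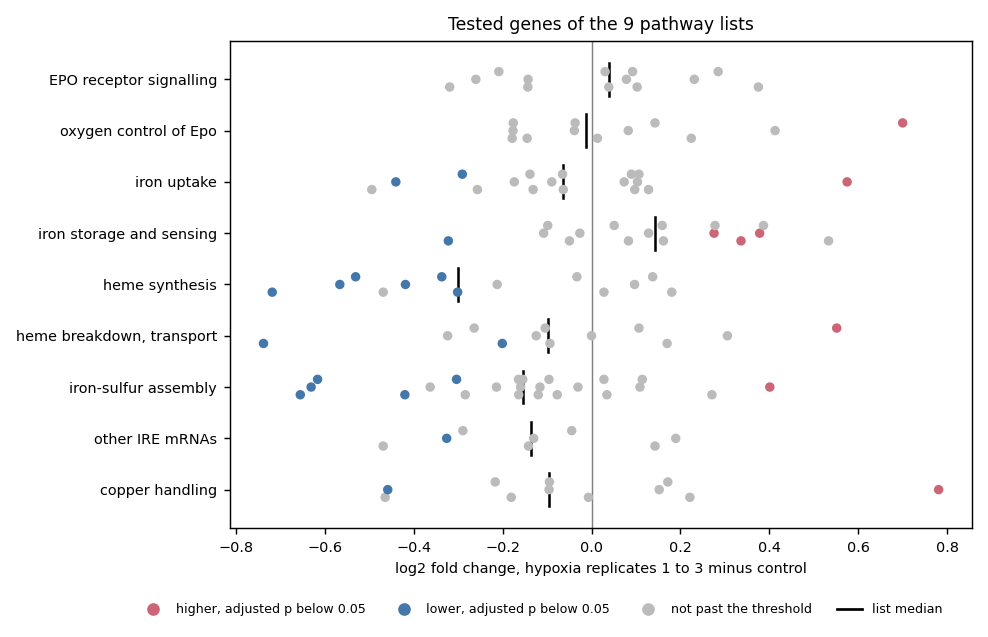
Log2 fold change, hypoxia replicates 1 to 3 minus control (x axis), of each tested gene in the 9 pathway lists (y axis); colour marks the adjusted p and the black bar is the list median. The heme synthesis list has the lowest median, -0.30, with 6 genes lower and 0 higher.

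Heme synthesis is the main use of iron in erythroid cells and is present in all cells with mitochondria. In that list 6 of 13 tested genes fell and none rose, against 7.75% and 4.53% of all tested genes. The median log2 fold change was -0.30, against -0.00046 over all tested genes. Clpx, a mitochondrial chaperone that activates the first enzyme of the pathway, fell from 61.5 ± 6.42 to 37.1 ± 2.25 FPKM (-0.72, limma adjusted p = 0.0026). Tmem14c, which moves a heme precursor into the mitochondrial matrix, fell from 101 to 69.3 FPKM, Uros from 8.46 to 5.54 FPKM and Cpox from 21.9 to 16.2 FPKM. The latter pair are enzymes of the later steps. Alas1, the rate-limiting enzyme outside erythroid cells, named after its values were seen, fell from 26.9 to 21.2 FPKM, and did not pass with all 10 libraries (limma adjusted p = 0.520).

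In heme breakdown and transport, 1 of 12 tested genes rose and 2 fell, against 4.53% and 7.75% of all tested genes. Hmox1, which opens the heme ring and frees its iron, fell from 18.6 ± 1.77 FPKM (SD, n = 5) to 10.9 ± 0.678 FPKM (SD, n = 3), with controls at 16.1 to 21.1 and hypoxia replicates 1 to 3 at 10.2 to 11.5 FPKM (log2 fold change -0.74, limma adjusted p = 0.0017). Hypoxia replicate 4 was at 10.7 FPKM, but hypoxia replicate 5 was at 96.4 FPKM, and with all 10 libraries Hmox1 did not pass (adjusted p = 0.896). Hmox2, the constitutive enzyme, fell from 20.6 to 17.9 FPKM, and Flvcr2, a membrane transporter, rose from 5.49 to 8.24 FPKM but did not pass with all 10 libraries (adjusted p = 0.0899). Without hypoxia replicate 1 or 3, 1 gene of this list passed.

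In iron-sulfur cluster assembly, 5 of 23 tested genes fell and 1 rose, against 7.75% and 4.53% of all tested genes. The list's median log2 fold change was -0.15. Glrx5, a mitochondrial cluster carrier, fell from 25.5 to 16.1 FPKM, Ciapin1 from 5.26 to 3.22 FPKM, Iba57 from 6.44 to 4.06 FPKM and Nfs1, the cysteine desulfurase, from 35.3 to 26.2 FPKM. Outside the naming rule, Bola3 fell and Mms19 rose. Proximal tubule, rich in mitochondria, is the main cell type of these samples. Its summed markers were at 13657 to 27470 FPKM in hypoxia replicates 1 to 3, below the controls (exact permutation p = 0.0179, 0.125 adjusted over 14 lists), but this rested on Kap, an androgen-regulated gene, which had means of 25699 FPKM in controls and 16681 FPKM in hypoxia. Without Kap the sums were 4789 to 6067 FPKM and 4854 to 5417 FPKM (exact permutation p = 0.232). Of the 11 tested markers 1 rose and 1 fell, against 4.53% and 7.75% of all tested genes.

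The list of iron storage and sensing had 3 genes higher and 1 lower of 16 tested, against 4.53% and 7.75% of all tested genes. Pcbp2, an iron chaperone that also binds RNA, rose from 36.8 to 48.3 FPKM, Bdh2 from 45.4 to 57.2 FPKM and Hfe, which interacts with the transferrin receptor, from 5.34 to 6.59 FPKM. Pcbp1, which delivers iron to ferritin, fell from 128 to 103 FPKM. With all 10 libraries Bdh2 and Hfe did not pass (limma adjusted p = 0.369 and 0.0662). Aco1, iron regulatory protein 1 and partner of Ireb2, chosen after its values were seen, had means of 101 FPKM at 400 m and 98.1 FPKM at 4200 m (adjusted p = 0.798). The list's 4 calls became 1 without control replicate 1, hypoxia replicate 1 or hypoxia replicate 3, and 2 without control replicate 5.

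Among other uptake genes, 1 of 17 rose and 2 fell, against 4.53% and 7.75% of all tested genes. Slc39a8 rose from 11.2 to 16.8 FPKM, and Slc39a14, like it a carrier of iron, zinc and manganese, fell from 6.55 to 4.71 FPKM. Snx3, which recycles the transferrin receptor, fell from 101 to 82.7 FPKM. Slc39a8 did not pass with all 10 libraries (limma adjusted p = 0.215), and no gene of the list passed without hypoxia replicate 1 or without hypoxia replicate 3, and 1 passed without control replicate 1 or hypoxia replicate 2. Of the copper genes that serve the ferroxidases, 2 of 11 tested passed, against 12.3% of all tested genes. Mt1, a metallothionein, rose from 66.7 to 115 FPKM and Atox1, a copper chaperone, fell from 161 to 117 FPKM. Of this list 1 passed without control replicate 1 or hypoxia replicate 1, and 0 without hypoxia replicate 3.

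Of the 8 tested genes of the list of other mRNAs with iron-responsive elements, none rose and 1 fell, with a median log2 fold change of -0.14. No gene of this list passed when 1 library was left out, except without control replicate 4. In the wider motif search, which includes the members, none of 26 tested genes with a 5′ match rose and 2 fell. Of 95 with a 3′ match 8 rose and 13 fell. Among all 14724 tested genes 4.53% rose and 7.75% fell.

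**Figure D4:**
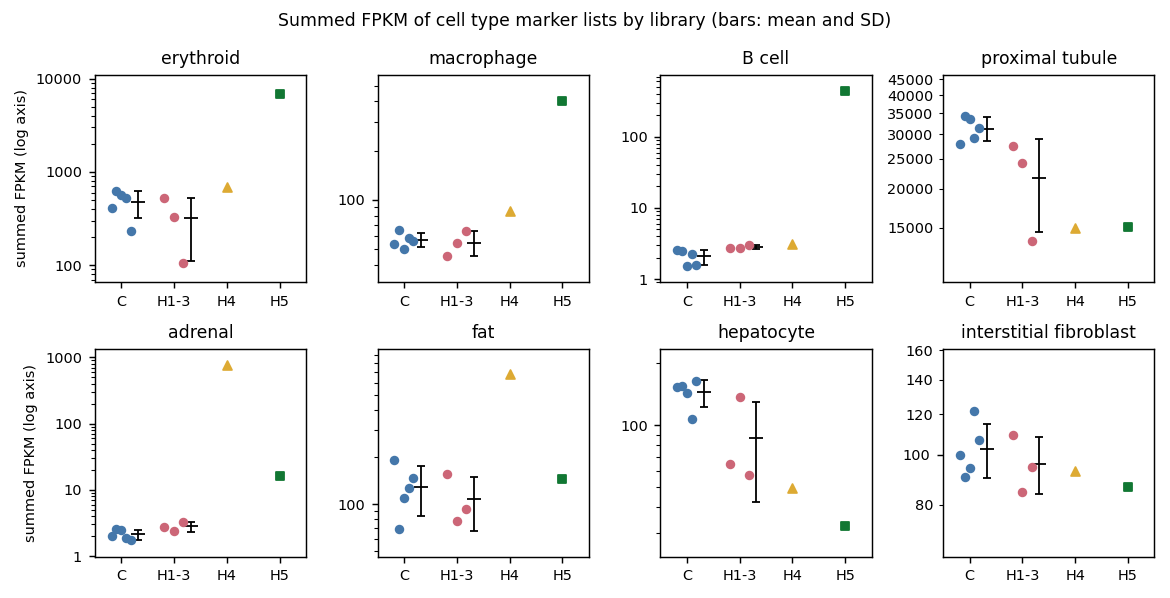
Summed FPKM (y axis, log scale) of 8 cell type marker lists in the control libraries (C), hypoxia replicates 1 to 3 (H1-3), hypoxia replicate 4 (H4) and hypoxia replicate 5 (H5); points are libraries and bars are mean and SD. Hypoxia replicate 5 reaches 6883 FPKM of erythroid markers, and hypoxia replicate 4 reaches 765 FPKM of adrenal markers.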

How the data were processed

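Kidney RNA of 5 control and 5 hypoxia libraries was measured. Per the submitters' processing notes, reads were aligned with HISAT2 2.0.5, and the same notes list the human build hg38, whereas the deposited table holds mouse genes. The sources used here do not name the counter, its strand setting or its treatment of reads with several matches. The authors deposited FPKM per gene, and the deposited table's gene length, an other unit, served to recover reads. Of the 55141 identifiers found in GENCODE M21, 99.4% had identical coordinates, so positions are GRCm38. FPKM times length gave whole reads for 100% of values (tolerance 0.05), with an implied library size of 0.949 to 1.10 times their sum.

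The main test used limma 3.58.1 under R 4.3.3 on log2(FPKM + 0.5), for genes averaging 0.5 FPKM or more in 8 libraries, moderated with trend and robust settings, two-sided, with Benjamini-Hochberg adjustment at 0.05. Groups came from the treatment label. Epo and marker sums were compared by exact permutation. Alternatives covered the libraries used, pseudocount, filter, scaling, error model, test, threshold, replicate block and the omission of each library. Simulated data with 14549 tested genes gave recovery of 42% of 100 genes changed by 0.5 and 86% of 100 changed by 1 (log2), with 12 false calls. All genes were simulated with the same spread beyond counting error. Among the tested members the SD ran from 5.29% (Heph) to 20.0% (Cp) of the control mean. In hypoxia replicates 1 to 3 it ran from 1.73% (Slc40a1) to 33.9% (Tfrc) of the mean. Recovery for a single member may therefore be lower or higher. Members, lists and tests were chosen with earlier results of these data known. Named genes were all members, up to 4 called genes per pathway list with the smallest p, or the 2 most abundant in the 8 compared libraries where none was called, the 2 most abundant of each marker list, and Hbb-bs and Alas2. A few genes that this rule takes are not reported here. No pair of libraries was alike within sampling noise. Counting intervals and the 3-read floor cover counting error only. Figures used matplotlib 3.10.9.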

Additional observations from a re-analysis of the deposited data

Results flagged for a closer look

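Of 48 groups examined for a library far from the rest of its group, 10 held one. Hypoxia replicate 5 was that library in 7 and hypoxia replicate 4 in 2, both already set apart for markers of other tissues. The groups also share libraries, so the usual chance rate of about 1 in 20 is no yardstick here. Among the members, Fth1 was lowest in hypoxia replicate 5 at 686 FPKM, and Slc40a1 was highest there at 29.5 FPKM. In the same library the summed markers stood apart for erythroid cells (6883 FPKM), myeloid precursors (139 FPKM), B cells (434 FPKM), macrophages (403 FPKM) and pancreas (55.6 FPKM). Hypoxia replicate 4 stood apart for adrenal (765 FPKM) and fat markers (676 FPKM), and control replicate 4 for endothelial markers (205.0 FPKM).

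In the libraries left out of the main comparison, several members lay above every control. In hypoxia replicate 4 these were Trf (44.3 FPKM), Slc40a1 (9.50 FPKM), Heph (3.07 FPKM) and Cp (10.5 FPKM). In hypoxia replicate 5 they were Tfrc (31.6 FPKM), Trf (67.3 FPKM), Slc40a1 (29.5 FPKM) and Cp (11.6 FPKM).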

How the results depend on the processing

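The number of genes past the threshold, 1808 in the main comparison (667 higher, 1141 lower), was 2724 with hypoxia replicate 4 added, 1037 without a filter, 881 with the replicate block, 455 at 0.01, 2889 at 0.1, and 0 by the exact rank-sum test (3168 at an unadjusted p under 0.05, against 4181 by limma). Leaving out 1 library gave 761 to 2076, with 989, 1141 and 1170 without control replicates 1, 2 and 3, and 761 and 808 without hypoxia replicates 1 and 3. The direction split was 1129 higher and 783 lower when scaled without the 100 most abundant genes, 1083 and 964 by voom, and 860 and 931 after quantile normalization. Of the members, 1 passed in the main comparison, 3 with hypoxia replicate 4 added, 2 with replicates 4 and 5 added, 2 by voom, 0 by rank-sum, 0 at 0.01, 3 at 0.1, and 0 to 3 when 1 library was left out. Of the pathway genes, 26 passed, but 17 without a filter, 0 by rank-sum, 8 at 0.01, and 11 to 30 when 1 library was left out. The smallest adjusted rank-sum p was 0.166 with 5 against 3 libraries, so no gene passed that test. The causes of the other shifts were not tested.

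For replicate numbers shared by the groups, the correlations of deviations were 0.028, 0.136 and -0.0057, all small. However, 4 of 6 libraries correlated best with their own number, so pairing was neither shown nor excluded. The replicate block gave 881 genes, 2 members (Trf and Cp, the latter at 0.64 with adjusted p = 0.0315) and 16 pathway genes.

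The Slc11a2 log2 fold change turned to -0.10 with all 10 libraries, -0.0096 with array weights, -0.054 with the replicate block, and -0.0079, -0.044 and -0.071 without control replicate 1, control replicate 4 and hypoxia replicate 1. Ireb2 turned to -0.017 with all 10 libraries, and Tfrc to -0.052 and -0.13 without hypoxia replicates 1 and 3. Over single-library omissions Slc11a2 ranged up to 0.10 and Tfrc up to 0.38. The Epo difference turned to 0.0719 FPKM without control replicate 1 and 0.0687 FPKM without hypoxia replicate 3. Differences in marker sums turned to 1233 FPKM for erythroid with all 10 libraries, and with hypoxia replicate 4, then 4 and 5, added to 5.76 and 73.8 FPKM for macrophage and 121 and 100.01 FPKM for fat. Sums without the most abundant marker of each list, chosen after seeing the data, turned to 17.1 FPKM for thick limb, 1.12 FPKM for endothelium, 0.073 FPKM for pancreas and 23.1 FPKM for hepatocyte. Low reads limit Epo.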
